A study of Homo sapiens with 12 samples.

Results

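The genes described here carry out or control the making and moving of cholesterol: the enzymes of the pathway from acetyl units to cholesterol, the sterol regulatory element-binding protein (SREBP) factors with the proteins that hold or release them, and 4 genes of sterol uptake and transport. They were chosen by name, as a list of 27 genes, with earlier results of these data known. A gene was measured by the probe set (a group of short probes for a transcript) annotated with that gene alone that had the highest mean over the 12 arrays, which gave 25 of the 27 genes among 19775 in all. CYP51A1, found only on probe sets annotated with several genes, and FDFT1 were not analysed here. The 4 lines go back to SKBR-3 cells, an established human breast cancer line in which ERBB2 (HER2) is amplified. SKR6 was sorted from SKBR-3 by flow cytometry for high HER2, and the 3 other lines were made from SKR6, so that all share this selection. SKR6-Vector received the empty retroviral vector pQCXIP and SKR6CA a retrovirus with constitutively active NF-kB relA/p65 (CAp65), each followed by puromycin. SKR6LR came from months in lapatinib, an inhibitor of the HER2 and EGFR kinases, at doses raised from 0.2 to 5 µM. The labels add that cells called SKLR, a name given to no sample, were kept in 0.2 µM lapatinib. Each line gave 3 biological replicates, grown for 48 hours in medium with 10% fetal bovine serum. Whether a line was a clone or a pool is not given in the sources used here.

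Cholesterol is made in the endoplasmic reticulum by a chain of enzymes that first build mevalonate, then isoprenoid units, then squalene, which is closed into the ring compound lanosterol and trimmed to cholesterol. SREBF1 and SREBF2 encode membrane-bound precursors of transcription factors. When membranes hold enough sterol, INSIG1 and INSIG2 retain the precursors through their escort SCAP. When sterol falls, SCAP carries them to the Golgi, where proteases free the active part. SREBF2 is best known for driving cholesterol genes and SREBF1 for driving genes of fatty acid synthesis, and INSIG1 is itself a target of the factors. Growth signalling from HER2 is known to feed into the same system in breast cancer cells.

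The bases before the gene starts are shown, since the factors bind there. They are given for some of the members called in the same direction in SKR6CA against SKR6-Vector and in SKR6LR against SKR6, picked by name. Active SREBP binds sterol regulatory elements next to boxes for the factors NF-Y and Sp1. The sequences are the 250 bases before the first listed start in RefSeq (GRCh38.p14), read 5′ to 3′ on the strand of the gene. Capitals mark matches to the sterol regulatory element core TCACNCCAC or to the NF-Y box CCAAT, on either strand (ATTGG is the NF-Y box on the other strand). The windows lie at chr22:41832855-41833104 (plus strand) for SREBF2, chr7:155297628-155297877 (plus strand) for INSIG1, chr5:111512536-111512785 (minus strand) for STARD4, chr5:43313413-43313662 (minus strand) for HMGCS1, chr4:165327419-165327668 (plus strand) for MSMO1 and chr2:118088221-118088470 (plus strand) for INSIG2.
SREBF2: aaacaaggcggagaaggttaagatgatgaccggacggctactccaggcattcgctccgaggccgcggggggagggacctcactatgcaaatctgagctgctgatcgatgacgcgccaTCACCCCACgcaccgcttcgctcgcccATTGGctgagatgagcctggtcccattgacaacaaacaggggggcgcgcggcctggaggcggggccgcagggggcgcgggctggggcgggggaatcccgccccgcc
INSIG1: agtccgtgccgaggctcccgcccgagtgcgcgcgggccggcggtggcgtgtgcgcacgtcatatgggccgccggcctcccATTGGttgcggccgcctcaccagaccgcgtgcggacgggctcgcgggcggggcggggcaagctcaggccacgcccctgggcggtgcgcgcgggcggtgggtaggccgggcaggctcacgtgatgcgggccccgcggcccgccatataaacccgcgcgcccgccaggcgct
STARD4: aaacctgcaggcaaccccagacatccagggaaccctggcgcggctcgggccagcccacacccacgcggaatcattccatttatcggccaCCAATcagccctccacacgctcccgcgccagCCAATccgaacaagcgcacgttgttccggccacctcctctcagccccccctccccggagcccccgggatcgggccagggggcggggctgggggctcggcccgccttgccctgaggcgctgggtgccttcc
HMGCS1: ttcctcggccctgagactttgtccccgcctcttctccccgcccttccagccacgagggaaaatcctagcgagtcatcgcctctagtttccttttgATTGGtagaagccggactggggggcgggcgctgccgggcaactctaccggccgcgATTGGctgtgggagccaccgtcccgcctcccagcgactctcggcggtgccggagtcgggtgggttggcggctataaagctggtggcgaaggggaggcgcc
MSMO1: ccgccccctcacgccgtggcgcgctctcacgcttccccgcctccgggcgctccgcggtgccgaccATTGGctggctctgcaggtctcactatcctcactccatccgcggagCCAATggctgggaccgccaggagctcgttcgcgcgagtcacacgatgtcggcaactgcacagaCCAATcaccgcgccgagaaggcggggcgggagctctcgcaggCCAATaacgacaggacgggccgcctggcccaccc
INSIG2: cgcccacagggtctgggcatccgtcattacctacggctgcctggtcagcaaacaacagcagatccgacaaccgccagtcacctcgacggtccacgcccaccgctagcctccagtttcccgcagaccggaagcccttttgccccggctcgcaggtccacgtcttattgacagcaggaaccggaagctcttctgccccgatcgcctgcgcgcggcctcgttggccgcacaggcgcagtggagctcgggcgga
The element core was found once, as TCACCCCAC, before SREBF2. Of the 24 members with an entry, 1 had that core (4.17%), against 1.09% of 27305 genes with any window. The NF-Y box stood before 18 of the 24 members (75.0%), against 37.0% of all genes, and MSMO1 held 4. No NF-Y box was found in the INSIG2 window shown. Of the other members that fell in SKR6CA against SKR6-Vector and in SKR6LR against SKR6, TM7SF2 had an NF-Y box 74 bases before its start and SCAP had none. The first IDI1 window and the second HMGCS1 window, of genes that rose, had none either. The Sp1 box GGGCGG stood before 23 of 24 (95.8%, against 46.2%) and the E-box CACGTG before 3 of 24 (12.5%, against 7.73%). These are matches of letters on both strands and not measured binding.

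Levels were log2 values, with array medians of 5.74 to 5.77, and all 25 members had a mean above the median of all probe sets. Replicates of SKR6LR varied most: the root mean square replicate SD over the members was 0.193 in SKR6LR, against 0.0736 to 0.0956 in the other lines. On SKR6LR replicate 3 the actin control probes gave a 3′ minus 5′ difference, a sign of RNA quality, of 2.32, against 1.03 to 1.73 on the 11 other arrays. Without that array 18 members were higher and 6 lower in SKR6LR than in SKR6, against 17 and 6 with it. ERBB2 lay at 12.39 to 12.55 in SKR6LR and at 13.80 to 14.06 on the 9 other arrays. Of 22 proliferation genes 21 were lower in SKR6LR than in SKR6, 13 in SKR6-Vector and 14 in SKR6CA, while 2 were higher and 0 lower in SKR6CA against SKR6-Vector. Over all genes 31% were lower in SKR6LR than in SKR6, 13.4% in SKR6-Vector and 14.4% in SKR6CA. In SKR6CA against SKR6-Vector 11.7% of all genes were higher and 14.9% lower. The part of ERBB2 and of the proliferation genes in the differences below was not tested. In SKR6LR 7 of 13 markers of luminal HER2-amplified epithelium were lower than in SKR6, among them FOXA1 (-3.29), SPDEF (-3.41) and TFAP2B (-4.22), and 3 were higher, GATA3 (2.10), KRT18 (0.63) and KRT8 (0.45). Of 13 markers of leukocytes, endothelium and fibroblasts, 4 were higher in SKR6LR (COL3A1, CDH5, CD14 and VWF) and 0 lower, with summed linear levels of 1600 to 2180 against 622 to 630 in SKR6, 822 to 861 in SKR6-Vector and 835 to 885 in SKR6CA. Of all genes 21.4% were higher and 31% lower in SKR6LR than in SKR6. CDH5 was higher than in SKR6 in all 3 derived lines (3.83 in SKR6LR, 2.96 in SKR6-Vector and 3.08 in SKR6CA). RMA gives no zero and no detection call. PTPRC (0.05), PECAM1 (-0.02), COL1A1 (-0.24) and LUM (0.04) were not called in SKR6LR, and the part of other cell types in the differences below was not tested. In bulk RNA a lower share of cells with a transcript and less of it per cell cannot be told apart.

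In SKR6LR most cholesterol genes were higher than in the parent line. A gene was called at an adjusted p under 0.05 (limma, 1 model of all arrays, Benjamini-Hochberg over all genes). Of the 25 members 17 rose, 6 fell and 2 did not pass, while 52.3% of all genes were called (21.4% higher and 31.0% lower). The median log2 difference of the members was 0.878, against -0.0579 over all genes. A difference of at least 1 was called for 14 members and 15.6% of all genes, and the arrays of both lines did not overlap for 23 members and 57.9% of all genes. SKR6LR is a single derived line, so lapatinib selection, any lapatinib kept in the medium and other differences from SKR6 cannot be told apart. An effect below means a difference between lines. In SKR6CA against SKR6-Vector, in which both lines were transduced and selected, 10 members rose, 5 fell and 10 did not pass, against 26.6% of all genes called (11.7% higher and 14.9% lower). With weights per array or per line, 8 members fell there instead of 5, and over all genes 3819 and 3762 fell instead of 2946. SKR6CA and SKR6-Vector are each a single derived line, so active p65 and other differences between them cannot be told apart. The words "with active p65" below mean this comparison. The median was 0.193 against 0.00331 over all genes. Of the members 3 were called with a difference of at least 1 (2.87% of all genes), and 20 had arrays that did not overlap (45.5% of all genes). The empty vector line itself differed from SKR6, with 9 members higher, 4 lower and a median of 0.0975, where 25.7% of all genes were called (12.2% higher and 13.4% lower). There 3 members reached a difference of 1 (2.66% of all genes) and 21 did not overlap (48.2% of all genes). Against the untransduced SKR6, the active p65 line had 12 members higher, 4 lower and a median of 0.290, where 24.3% of all genes were called (9.97% higher and 14.4% lower). In that comparison 7 members reached a difference of 1 (2.19% of all genes) and 20 did not overlap (45.5% of all genes). Of these comparisons, SKR6LR against SKR6 and SKR6CA against SKR6-Vector share no array, and every other pair shares a line.

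**Figure D1:**
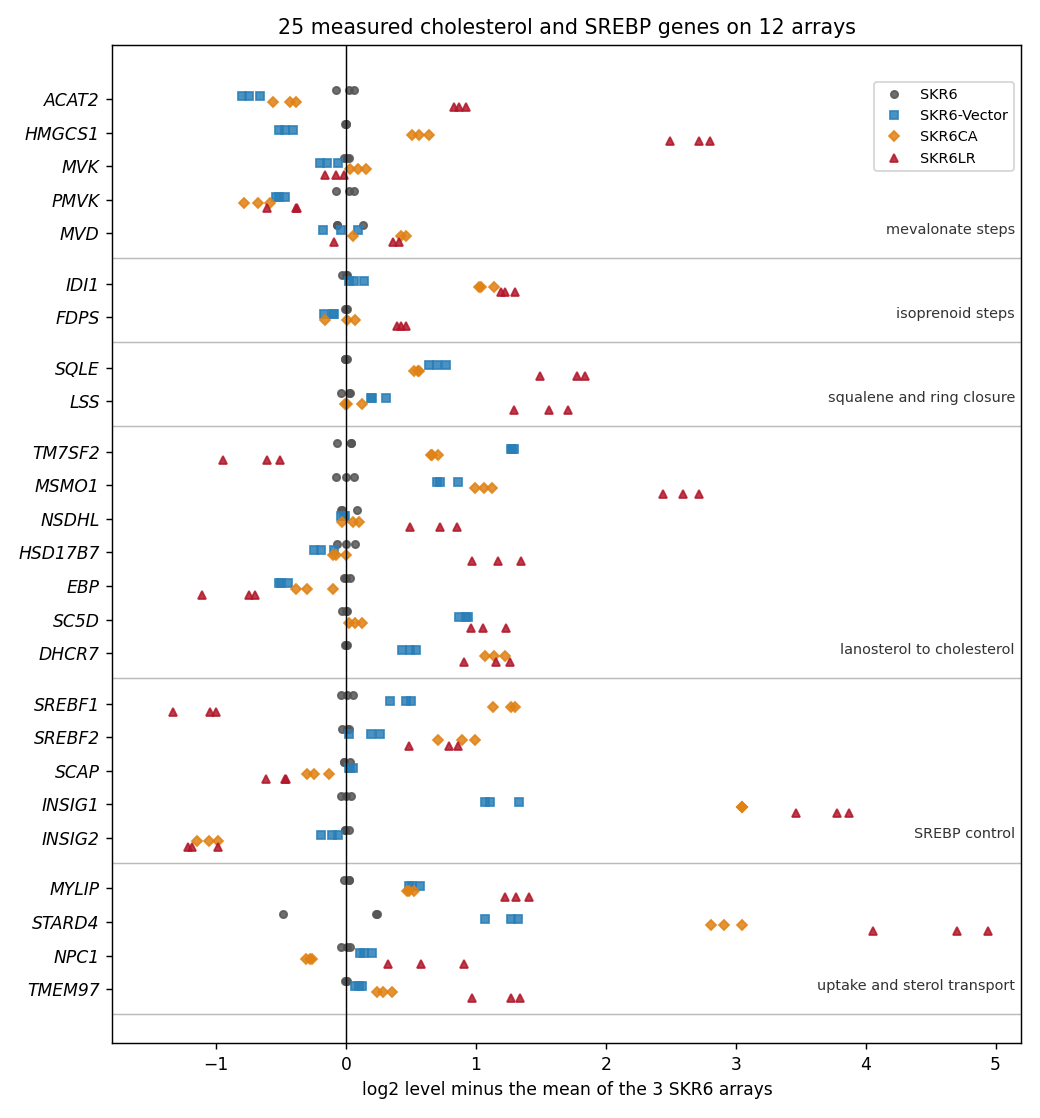
Each point is 1 array, plotted as its log2 level minus the mean of the 3 SKR6 arrays, for the 25 measured genes grouped by role; colours and shapes mark the 4 lines. The SKR6LR arrays lie farthest to the right for most enzymes and for INSIG1 and STARD4, and farthest to the left for SREBF1, SCAP, TM7SF2 and EBP. For INSIG2 the SKR6LR and SKR6CA arrays lie to the left and overlap.

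Among the control genes the paired retention proteins moved in opposite directions. INSIG1, the retention protein that is itself an SREBP target, measured 7.07, 7.03 and 6.99 on the SKR6 arrays, 8.36, 8.10 and 8.14 on SKR6-Vector, 10.08, 10.08 and 10.08 on SKR6CA and 10.90, 10.49 and 10.81 on SKR6LR. The 4 lines did not overlap and rose in that order. INSIG1 was higher by 1.17 in SKR6-Vector than in SKR6 (SE 0.0989, adjusted p = 3.03e-06, limma), by 1.88 in SKR6CA than in SKR6-Vector (adjusted p = 5.37e-08) and by 3.70, or 13-fold, in SKR6LR than in SKR6 (adjusted p = 7.54e-12). The 3 SKR6CA values agreed to 2 decimals (SD 0.00126), closer than those of any other member in any line.

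INSIG2, which has the same retention role but is not known as a strong SREBP target, measured 9.88, 9.88 and 9.91 on the SKR6 arrays, 9.83, 9.70 and 9.78 on SKR6-Vector, 8.83, 8.90 and 8.74 on SKR6CA and 8.70, 8.67 and 8.90 on SKR6LR. SKR6 and SKR6-Vector lay near each other, and SKR6CA and SKR6LR lay about a log2 unit lower and overlapped each other. The difference was -0.95 in SKR6CA against SKR6-Vector (SE 0.0709, adjusted p = 1.05e-06), and -1.13 in SKR6LR against SKR6 (adjusted p = 2.51e-08, limma). The vector line was not called (-0.12, adjusted p = 0.277). These differences of SKR6CA and SKR6LR from their controls lay 0.18 apart, which was not called (95% interval -0.03 to 0.40, adjusted p = 0.164).

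The factor genes split. SREBF1, which is tied to fatty acid genes, measured 10.26, 10.30 and 10.21 on the SKR6 arrays, 10.75, 10.71 and 10.59 on SKR6-Vector, 11.55, 11.38 and 11.52 on SKR6CA and 8.92, 9.25 and 9.20 on SKR6LR. It was highest in SKR6CA and lowest in SKR6LR, with no overlap between any 2 lines. The difference was 0.80 in SKR6CA against SKR6-Vector (SE 0.0876, adjusted p = 2.56e-05) and -1.13 in SKR6LR against SKR6 (adjusted p = 1.93e-07, limma), and the effects differed by 1.93 (adjusted p = 5.35e-08). SREBF1 was the only member that rose in the first of these comparisons and fell in the other.

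SREBF2, the cholesterol factor, measured 7.36, 7.37 and 7.32 on the SKR6 arrays, 7.61, 7.54 and 7.37 on SKR6-Vector, 8.34, 8.06 and 8.24 on SKR6CA and 8.21, 8.14 and 7.83 on SKR6LR. SKR6CA and SKR6LR overlapped and lay above the 2 other lines. SREBF2 rose by 0.70 in SKR6CA against SKR6-Vector (SE 0.103, adjusted p = 0.000258) and by 0.71 in SKR6LR against SKR6 (adjusted p = 6.31e-05, limma). These effects differed by -0.01 (95% interval -0.33 to 0.31, adjusted p = 0.968). The vector line was not called (0.16, adjusted p = 0.324). SCAP, the escort of both precursors, measured 9.44, 9.44 and 9.49 on the SKR6 arrays, 9.48, 9.51 and 9.49 on SKR6-Vector, 9.33, 9.21 and 9.16 on SKR6CA and 9.00, 8.84 and 8.99 on SKR6LR. It was lower in SKR6CA than in SKR6-Vector (-0.26, SE 0.0637, adjusted p = 0.00778) and in SKR6LR than in SKR6 (-0.52, adjusted p = 1.51e-05), without overlap, and was not called in the vector line (0.04).

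**Figure D2:**
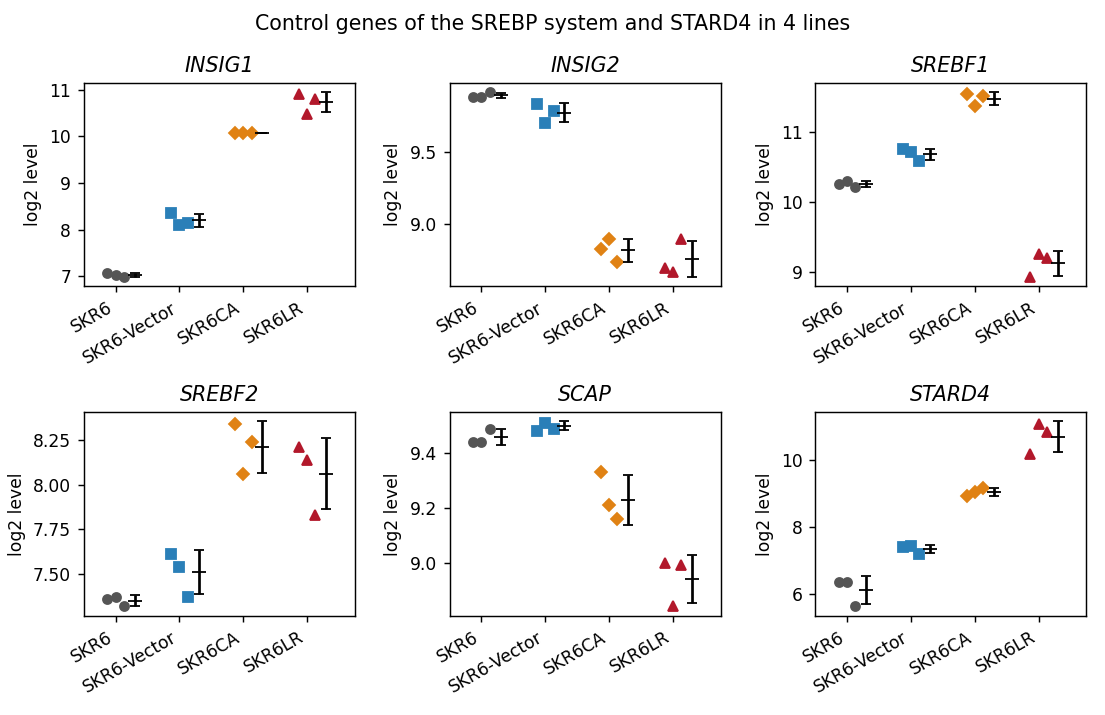
Log2 levels of 5 SREBP control genes and STARD4 on every array; points are single arrays, and the horizontal mark with a bar is the mean with SD of 3 arrays per line. INSIG1 and STARD4 climb over the lines, INSIG2 drops in SKR6CA and SKR6LR, and SREBF1 is highest in SKR6CA and lowest in SKR6LR. Each panel has its own axis, which does not start at 0.

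Of the 5 genes of the mevalonate steps, 3 rose and 0 fell in SKR6CA against SKR6-Vector, and 2 rose and 1 fell in SKR6LR against SKR6. Beside this and the role groups below, 11.7% of all genes rose and 14.9% fell in SKR6CA against SKR6-Vector. In SKR6LR against SKR6 21.4% of all genes rose and 31% fell. HMGCS1, the synthase that forms HMG-CoA, measured 9.05, 9.06 and 9.06 on the SKR6 arrays, 8.65, 8.59 and 8.54 on SKR6-Vector, 9.70, 9.62 and 9.57 on SKR6CA and 11.86, 11.55 and 11.78 on SKR6LR. Every SKR6LR array lay above all others, and the SKR6-Vector arrays lay lowest. HMGCS1 rose by 2.68 in SKR6LR (SE 0.0768, adjusted p = 1.46e-11, limma), a 6.39-fold difference, and by 1.04 in SKR6CA against SKR6-Vector (adjusted p = 9.84e-07). It fell in the vector line (-0.46, adjusted p = 0.000703), and its rise in SKR6CA was 0.57 with SKR6 as the control (adjusted p = 0.000173). ACAT2, the thiolase that joins acetyl units, rose by 0.88 in SKR6LR and by 0.28 in SKR6CA against SKR6-Vector, but was below SKR6 in both transduced lines (-0.73 in SKR6-Vector and -0.46 in SKR6CA, both called).

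None of the kinases and the decarboxylase that process mevalonate was called higher in SKR6LR. MVK, mevalonate kinase, rose by 0.22 in SKR6CA against SKR6-Vector (adjusted p = 0.0151, limma), a call lost at adjusted p = 0.0522 to 0.0718 without SKR6-Vector replicate 2 or 3 or SKR6CA replicate 1. In SKR6LR it was not called (-0.09, adjusted p = 0.253). PMVK, phosphomevalonate kinase, fell by 0.46 in SKR6LR and was also lower than SKR6 in SKR6-Vector (-0.51) and SKR6CA (-0.69). Between the transduced lines it was not called (-0.18, adjusted p = 0.123). MVD, the decarboxylase, was called in none of the 4 comparisons between lines, and its arrays overlapped in each (0.23 in SKR6LR, adjusted p = 0.201).

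In the isoprenoid steps IDI1 and FDPS, which make the units that also serve protein prenylation, both rose in SKR6LR. IDI1, the isomerase, measured 10.96, 10.97 and 10.93 on the SKR6 arrays, 11.10, 11.02 and 10.98 on SKR6-Vector, 12.10, 11.98 and 12 on SKR6CA and 12.26, 12.15 and 12.18 on SKR6LR. SKR6CA and SKR6LR lay about a log2 unit above the other lines, without overlap. The difference was 0.99 in SKR6CA against SKR6-Vector (SE 0.0575, adjusted p = 1.12e-07) and 1.24 in SKR6LR against SKR6 (adjusted p = 1.37e-09, limma). Both are from an _x_at probe set, whose probes may also match other transcripts, and the other IDI1 probe sets are given below. FDPS, the farnesyl diphosphate synthase, rose by 0.42 in SKR6LR and was called in no other comparison between lines.

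At the squalene step and ring closure both measured genes rose in SKR6LR and neither was called between the transduced lines. SQLE, the epoxidase often held to be rate-limiting, measured 10.99, 11.01 and 10.99 on the SKR6 arrays, 11.77, 11.70 and 11.64 on SKR6-Vector, 11.56, 11.52 and 11.55 on SKR6CA and 12.84, 12.49 and 12.78 on SKR6LR. All 3 derived lines lay above SKR6, and SKR6LR was highest. SQLE rose by 1.71 in SKR6LR (SE 0.0797, adjusted p = 1.44e-09, limma) and by 0.71 in SKR6-Vector against SKR6 (adjusted p = 3.40e-05). Active p65 against the vector gave -0.16 (adjusted p = 0.182).

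LSS, the cyclase that forms lanosterol, measured 9.43, 9.42 and 9.36 on the SKR6 arrays, 9.71, 9.59 and 9.60 on SKR6-Vector, 9.52, 9.41 and 9.39 on SKR6CA and 10.69, 11.11 and 10.96 on SKR6LR. Its SKR6LR arrays stood clear of the 9 others, which lay within 0.35 of one another. LSS rose by 1.51 in SKR6LR (SE 0.0911, adjusted p = 1.71e-08, limma) and gave -0.19 between SKR6CA and SKR6-Vector (adjusted p = 0.158).

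From lanosterol to cholesterol 5 of 7 genes rose and 2 fell in SKR6LR, while 2 rose and 2 fell in SKR6CA against SKR6-Vector. MSMO1, the methyl sterol oxidase, measured 9.88, 9.74 and 9.82 on the SKR6 arrays, 10.68, 10.54 and 10.52 on SKR6-Vector, 10.88, 10.94 and 10.81 on SKR6CA and 12.54, 12.26 and 12.41 on SKR6LR. The lines climbed in that order without overlap. MSMO1 rose by 2.58 in SKR6LR (SE 0.0783, adjusted p = 2.42e-11, limma), by 0.76 in SKR6-Vector against SKR6 and by 0.30 in SKR6CA against SKR6-Vector. The last call (adjusted p = 0.0133) was lost at adjusted p = 0.0515 to 0.0581 without SKR6-Vector replicate 2 or 3 or SKR6CA replicate 2.

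HSD17B7, a keto-sterol reductase with only an _x_at probe set, measured 8.98, 9.05 and 9.12 on the SKR6 arrays, 8.80, 8.96 and 8.86 on SKR6-Vector, 8.97, 9.05 and 8.95 on SKR6CA and 10.40, 10.02 and 10.22 on SKR6LR. The SKR6LR arrays lay above all others, with a rise of 1.16 (SE 0.0885, adjusted p = 1.65e-07, limma), and HSD17B7 was not called in the 3 other comparisons between lines. NSDHL, the sterol dehydrogenase that removes methyl groups, likewise rose by 0.68 in SKR6LR and was not called elsewhere.

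SC5D, a desaturase near the end of the chain, measured 9.26, 9.29 and 9.30 on the SKR6 arrays, 10.23, 10.21 and 10.16 on SKR6-Vector, 9.31, 9.41 and 9.36 on SKR6CA and 10.52, 10.25 and 10.34 on SKR6LR. SKR6-Vector and SKR6LR were high, while SKR6CA lay near SKR6. SC5D rose by 0.92 in SKR6-Vector (SE 0.0685, adjusted p = 1.08e-06) and by 1.08 in SKR6LR (adjusted p = 2.77e-08, limma), both against SKR6. Its fall in SKR6CA against SKR6-Vector, a difference of -0.84 (adjusted p = 2.15e-06), left SKR6CA against SKR6 not called (0.07, adjusted p = 0.510).

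DHCR7, the reductase that ends the chain, measured 9.29, 9.28 and 9.30 on the SKR6 arrays, 9.83, 9.78 and 9.72 on SKR6-Vector, 10.36, 10.43 and 10.51 on SKR6CA and 10.55, 10.44 and 10.20 on SKR6LR. SKR6CA and SKR6LR overlapped and lay above SKR6-Vector, which lay above SKR6. DHCR7 rose by 0.65 in SKR6CA against SKR6-Vector (SE 0.0813, adjusted p = 7.03e-05), by 1.10 in SKR6LR against SKR6 (adjusted p = 1.19e-07) and by 0.48 in SKR6-Vector against SKR6 (adjusted p = 0.000763, limma).

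TM7SF2 and EBP, which both act on the double bonds of the sterol ring, fell in SKR6LR. TM7SF2, a sterol reductase, measured 7.91, 7.91 and 7.80 on the SKR6 arrays, 9.15, 9.16 and 9.14 on SKR6-Vector, 8.52, 8.58 and 8.53 on SKR6CA and 7.36, 7.26 and 6.92 on SKR6LR. No 2 lines overlapped, with SKR6-Vector highest and SKR6LR lowest. TM7SF2 rose by 1.28 in SKR6-Vector against SKR6 (SE 0.0925, adjusted p = 8.10e-07), fell by 0.61 in SKR6CA against SKR6-Vector (adjusted p = 0.000349) and by 0.69 in SKR6LR against SKR6 (adjusted p = 3.07e-05, limma). Against SKR6 it was higher in SKR6CA, by 0.67. EBP, the sterol isomerase, fell by 0.86 in SKR6LR (SE 0.102, adjusted p = 1.03e-05) and by 0.49 in SKR6-Vector, both against SKR6, and was not called between the transduced lines (0.23, adjusted p = 0.134).

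All 4 genes of uptake and sterol transport rose in SKR6LR, as did 21.4% of all genes. STARD4, a soluble sterol carrier, measured 6.37, 6.36 and 5.64 on the SKR6 arrays, 7.40, 7.45 and 7.20 on SKR6-Vector, 8.94, 9.04 and 9.18 on SKR6CA and 10.19, 11.07 and 10.83 on SKR6LR. As with INSIG1 the 4 lines climbed without overlap, although SKR6 replicate 3 lay 0.72 below the next SKR6 array. The SKR6 arrays lay close to the array medians, where RMA compresses differences. The log2 difference of 4.57 in SKR6LR (SE 0.219, adjusted p = 1.90e-09, limma) was the largest of any member. It was 1.70 in SKR6CA against SKR6-Vector (adjusted p = 9.45e-05) and 1.22 in SKR6-Vector against SKR6 (adjusted p = 0.00123).

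MYLIP, a ubiquitin ligase that marks lipoprotein receptors for degradation and is known as a liver X receptor target, measured 10.12, 10.16 and 10.16 on the SKR6 arrays, 10.65, 10.62 and 10.71 on SKR6-Vector, 10.62, 10.61 and 10.66 on SKR6CA and 11.45, 11.36 and 11.55 on SKR6LR. SKR6-Vector and SKR6CA lay together between SKR6 and SKR6LR. MYLIP rose by 1.31 in SKR6LR (SE 0.0591, adjusted p = 1.04e-09, limma) and by 0.52 in SKR6-Vector against SKR6 (adjusted p = 3.85e-05), and gave -0.03 between the transduced lines (adjusted p = 0.784).

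TMEM97, a membrane protein that binds NPC1, measured 10.87, 10.89 and 10.88 on the SKR6 arrays, 11.00, 10.98 and 10.95 on SKR6-Vector, 11.23, 11.12 and 11.16 on SKR6CA and 12.15, 11.85 and 12.22 on SKR6LR. SKR6LR lay about a log2 unit above the rest, with a rise of 1.20 (SE 0.0825, adjusted p = 6.41e-08, limma). Between the transduced lines it was not called (0.19, adjusted p = 0.116), and against SKR6 it rose by 0.29 in SKR6CA (adjusted p = 0.0221), a call lost at adjusted p = 0.0552 to 0.0769 without any SKR6 array or without SKR6CA replicate 1 or 3. NPC1, the lysosomal sterol exporter, rose by 0.60 in SKR6LR (adjusted p = 0.000477) and fell by 0.44 in SKR6CA against SKR6-Vector (adjusted p = 0.0108).

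The differences of SKR6LR from SKR6 and of SKR6CA from SKR6-Vector, called effects here, were compared directly, since these comparisons share no array. Of 25 members 16 had a lower effect in SKR6CA than in SKR6LR, 4 a higher one and 5 did not pass, against 45.4% of all genes called (19.8% lower and 25.6% higher). The largest gaps in size were in STARD4 (-2.87, SE 0.310, adjusted p = 6.74e-06), MSMO1 (-2.29, adjusted p = 3.74e-09), SREBF1 (1.93), SC5D (-1.93) and SQLE (-1.87). The 4 with a higher effect in SKR6CA were SREBF1, EBP (1.08, adjusted p = 4.05e-05), MVK (0.31) and SCAP (0.25, adjusted p = 0.0378, limma). The SCAP call was lost without any single array of SKR6 or SKR6-Vector, without SKR6CA replicate 1 or 2 and without SKR6LR replicate 2 (adjusted p = 0.0524 to 0.0913). Among the 16, the IDI1 call (-0.25) was lost without SKR6 replicate 3, SKR6-Vector replicate 1 or SKR6CA replicate 2 or 3. Its adjusted p there was 0.0563 to 0.0698 (limma). Another IDI1 probe set, of mean level 11.39, gave -0.23, not called. DHCR7 gave -0.45 on the probe set used and 0.20, not called, on its other probe set. For TM7SF2 the effects differed by 0.09 (95% interval -0.20 to 0.37, adjusted p = 0.636).

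By call, 8 members rose in both comparisons: ACAT2, HMGCS1, IDI1, MSMO1, DHCR7, SREBF2, INSIG1 and STARD4, as did 3.94% of all genes. They were 8 of the 10 that rose with active p65 and 8 of the 17 that rose in SKR6LR. TM7SF2, SCAP and INSIG2 fell in both (7.09% of all genes). SC5D and NPC1 fell with active p65 and rose in SKR6LR (4.46% of all genes), and SREBF1 went the other way (4.96% of all genes). By call 7 members rose in SKR6LR and were not called with active p65, FDPS, SQLE, LSS, NSDHL, HSD17B7, MYLIP and TMEM97 (13% of all genes).

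**Figure D3:**
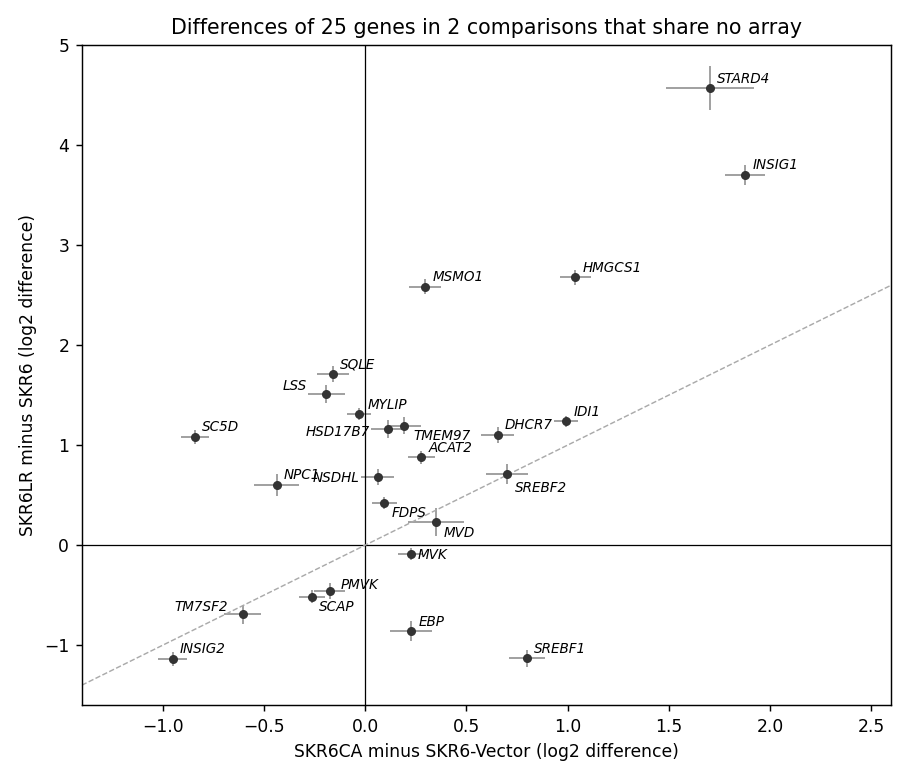
Each point is a gene, with its log2 difference between SKR6CA and SKR6-Vector on the horizontal axis and between SKR6LR and SKR6 on the vertical axis; bars are SEs and the dashed line marks equal differences. INSIG1 (1.88 and 3.70) and STARD4 (1.70 and 4.57) lie at the upper right, INSIG2 (-0.95 and -1.13) at the lower left and SREBF1 (0.80 and -1.13) at the lower right.

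The order of the lines was counted after the values had been seen. For IDI1, MSMO1, INSIG1, STARD4 and TMEM97, 5 of 25 members, every array followed the order SKR6, SKR6-Vector, SKR6CA, SKR6LR upward without overlap, as 0.850% of all genes did. The step from SKR6 to SKR6-Vector was not called for IDI1 (0.08) and TMEM97 (0.10), nor was the next step for TMEM97 (0.19). On the other TMEM97 probe sets the step from SKR6 to SKR6-Vector was -0.15 to 0.07 and not called. The reverse order held for 0 members and 1.92% of all genes. In 15 members every SKR6LR array lay above every other array (16.2% of all genes), and in TM7SF2, EBP, SREBF1 and SCAP every one lay below (22.1% of all genes). In 10 members every SKR6CA array lay above every SKR6 and SKR6-Vector array (10.1% of all genes), and in PMVK, SCAP, INSIG2 and NPC1 every one lay below (13.8% of all genes).

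Several probe sets measured 15 of the 25 genes. The 3 INSIG1 probe sets gave 1.70 to 1.88 in SKR6CA against SKR6-Vector and 3.03 to 3.70 in SKR6LR against SKR6. The second SREBF1 probe set was higher in the first comparison (0.38) and lower in the other (-0.48). The second HMGCS1 probe set gave 0.87 and 2.93, and in SKR6-Vector against SKR6 it gave -0.21, not called. The 4 SQLE probe sets gave 1.71 to 2.33 in SKR6LR. With active p65 1 SQLE probe set was called lower (-0.50) and 3 were not called. The 3 other TMEM97 probe sets were called higher with active p65 (0.27 to 0.48), where the one used was not, as were 2 of the 3 other EBP probe sets (0.20 and 0.34). For SREBF2 the 3 probe sets gave 0.25 to 0.70 and 0.39 to 1.01, with 0.25 not called, and on 1 of them the difference between effects was called (-0.55, adjusted p = 0.0382, limma over all probe sets).

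For other members the probe sets disagreed. IDI1 rose on both bright _x_at probe sets (0.99 and 0.96 in SKR6CA against SKR6-Vector), but on the probe set outside the _x_at kind, of mean level 5.62, it was lower by call (-0.49 there and -0.28 in SKR6LR). A dimmer _x_at probe set, of mean level 6.83, gave -0.17 in SKR6CA against SKR6-Vector and -0.05 in SKR6LR, neither called. In SKR6CA against SKR6 that probe set was called lower (-0.24). MVK, not called in SKR6LR on the probe set used, was called lower on 2 others (-0.45 and -0.96). MYLIP probe sets ran from -0.29 to 0.89 with active p65, while 5 of 6 rose in SKR6LR, by 1.14 to 1.68. With active p65 the values of -0.29 and -0.25 were called lower, 0.89 was called higher and the rest were not called. The second SC5D probe set, with a mean of 4.10, gave -0.07 and -0.08. NPC1 fell with active p65 on its brightest probe set, while on the 3 dimmer ones, with means of 3.96 to 6.53, the differences were 0.24 to 0.30 and 2 of them were called higher. STARD4, INSIG2, SCAP, MSMO1, TM7SF2 and 5 other members had a single probe set.

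**Figure D4:**
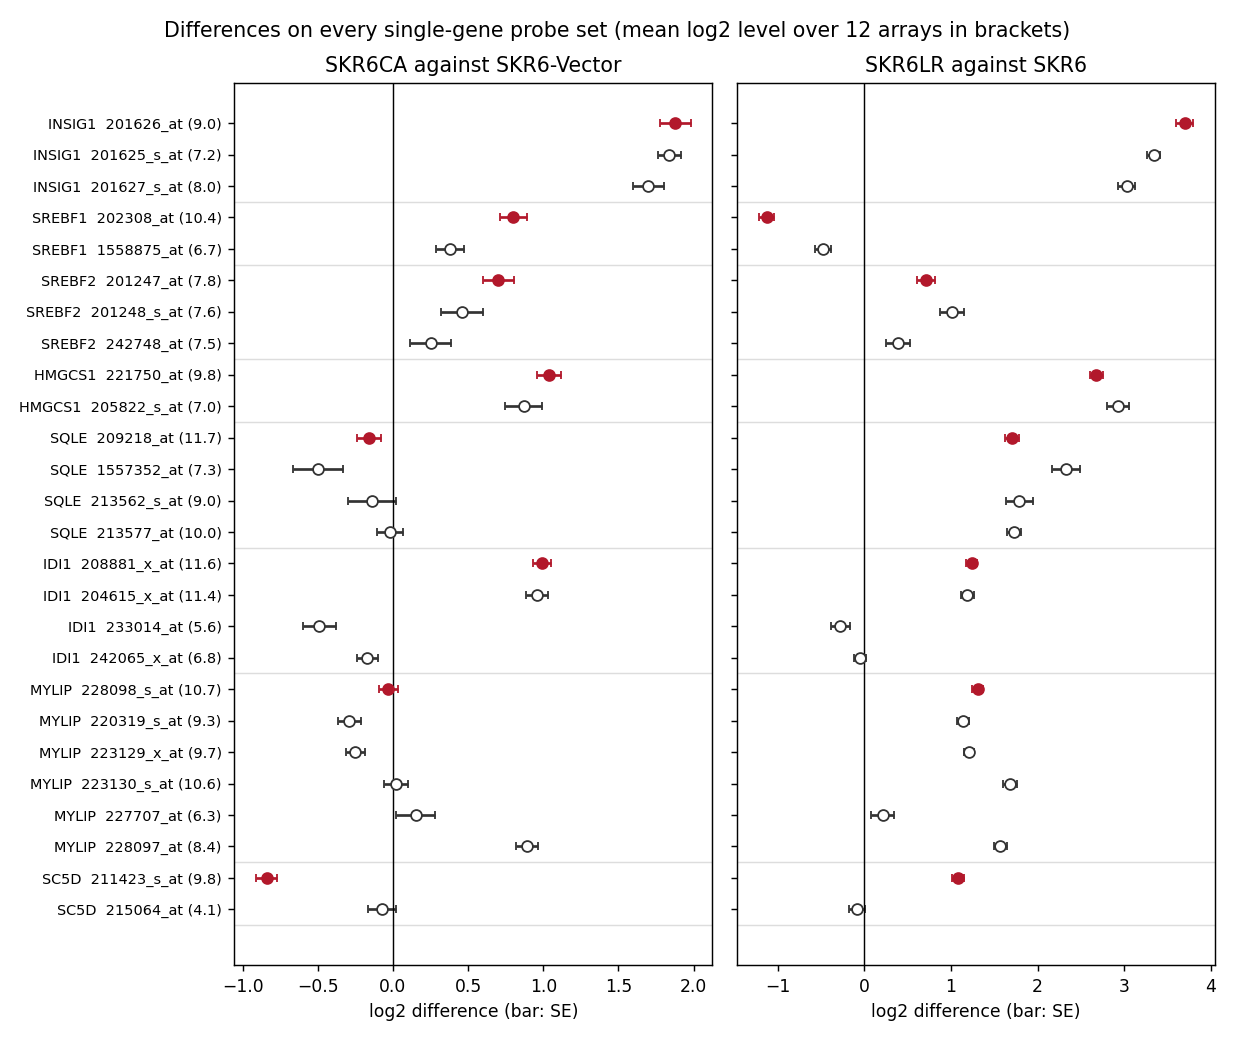
Log2 differences with SE (bars) on every single-gene probe set of 8 members, in SKR6CA against SKR6-Vector on the left and SKR6LR against SKR6 on the right; filled red points are the probe sets used for the gene. INSIG1, SREBF1, SREBF2 and HMGCS1 keep their direction on all probe sets, while IDI1 in both panels, MYLIP in the left one and SC5D in the right one do not.

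Lists of neighbouring lipid genes were chosen with earlier results of these data known. Over all genes 11.7% rose and 14.9% fell in SKR6CA against SKR6-Vector (median 0.00331). In SKR6LR against SKR6 21.4% of all genes rose and 31% fell (median -0.0579). Of 18 measured genes of fatty acid synthesis and desaturation 9 rose and 0 fell in SKR6CA against SKR6-Vector (median 0.372), while in SKR6LR against SKR6 7 rose and 9 fell (median -0.232). FASN, the fatty acid synthase, lay at 10.90, 10.94 and 10.90 in SKR6 and 10.11, 9.79 and 9.60 in SKR6LR, a difference of -1.08 (SE 0.0993, adjusted p = 1.01e-06, limma), but rose by 0.86 with active p65 (adjusted p = 3.91e-05). The lipogenic regulator THRSP did the same (-1.98 and 0.45). SCD, the desaturase, rose in both, by 1.94 and by 1.00.

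Sterol efflux genes moved both ways in SKR6LR. Of 8 liver X receptor and efflux genes 2 rose and 6 fell there (median -0.378), and the transporter ABCA1 rose by 1.73 (SE 0.162, adjusted p = 1.16e-06, limma) while ABCG1 fell by 3.01 (adjusted p = 3.64e-08). With active p65 0 rose and 5 fell against the vector (median -0.242), ABCA1 by 1.11 and ABCG1 by 0.76. Over all genes 26.6% were called with active p65 and 52.3% in SKR6LR. Against SKR6 the active p65 line was lower by less for ABCA1, at -0.52, and by more for ABCG1, at -0.99. SMPDL3A was also lower by more (-1.23, and -0.47 against the vector), while LPCAT3 was higher (0.29, and -0.25 against the vector).

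Of 13 genes of SREBP cleavage and sterol-regulated degradation 3 rose and 4 fell with active p65 (median -0.144), and 4 rose and 5 fell in SKR6LR (median 0.0135). Beside this and the lists that follow, 26.6% of all genes were called with active p65 and 52.3% in SKR6LR. In SKR6LR MARCHF6, a ligase of sterol-regulated degradation, fell by 0.97 and FBXW7, a ligase adaptor for active SREBP, rose by 0.91. Of 21 trafficking and storage genes 4 rose and 5 fell with active p65 (median -0.0637), and 7 rose and 11 fell in SKR6LR (median -0.158), where the sterol carrier GRAMD1C fell by 2.42. The lipoprotein receptor SCARB1 rose in SKR6LR (1.04), SKR6-Vector (1.31) and SKR6CA (1.19), each against SKR6. Of 14 genes of the non-sterol isoprenoid branch 6 rose and 2 fell with active p65 (median 0.146), and 4 rose and 5 fell in SKR6LR (median -0.0472), where PDSS2, of ubiquinone synthesis, fell by 1.09.

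**Figure D5:**
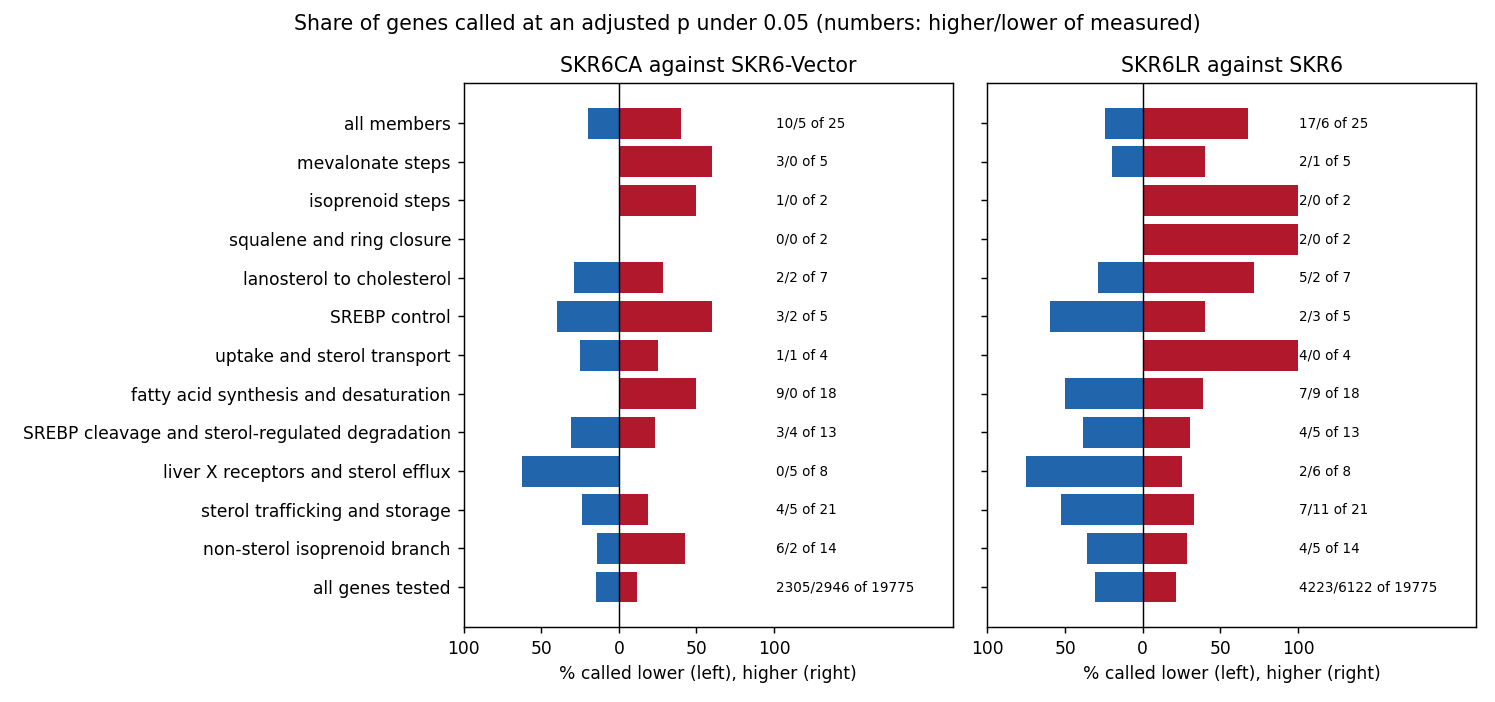
Bars give the percentage of measured genes called higher (red, to the right) or lower (blue, to the left) in SKR6CA against SKR6-Vector and in SKR6LR against SKR6, with counts beside them, for the members by role, 5 related lists and all 19775 genes. In SKR6LR the isoprenoid, squalene and transport groups lie wholly to the right, while 7 fatty acid genes rose and 9 fell.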

How the data were processed

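Total RNA of 12 cultures was amplified from the poly(A) end with a T7 primer and biotin-labelled, per the labels' protocols, for arrays that hold 54675 probe sets. The deposited values are log2 values; RMA and limma are named in the submitters' processing notes, without versions or settings. RMA sets each level relative to the other arrays and compresses small differences near background. The number of arrays limits the precision.

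Gene names come from GEO's platform annotation, with symbols updated by gene ID for 41043 of 41097 single-gene probe sets (RefSeq, GRCh38.p14). The lines were compared with limma 3.58.1 in R 4.3.3 (lmFit, eBayes; 1 mean per line, all 12 arrays, no filter), so each SE pools the spread of the 4 lines. The labels call the replicates biological; whether they were separate derivations is not given, so p-values measure the spread among cultures. The test was checked on simulated data.

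The members and lists were chosen with earlier results of these data known. Array values are given for the 5 SREBP control genes and for members called with a difference of at least 1 and no overlap in any comparison between lines; up to 4 called genes with the largest differences could be named per related list. The THRSP value with active p65 and the marker genes fall outside it and were picked with their values in view. The alternatives were the replicate block, single arrays left out, between-array cyclic loess or median centring, weights per array or per line, a robust variance trend, fits of the compared lines alone, a filter on low values, 3 other choices of probe set and an adjusted p under 0.01.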

Additional observations from a re-analysis of the deposited data

How the results depend on the processing

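Of 87 called values, 87 kept their direction and call with array weights, 1 weight per line, median centring, the variance trend and the filter on low values, as did 67 of 67 with only the compared arrays. Cyclic loess kept 84 of 87, the mean of probe sets 85 (1 reversed), the probe set with the largest variance 81 (1 reversed), an adjusted p under 0.01 80, and leaving out _x_at and _s_at probe sets 59 of 68 (6 reversed). The replicate numbers did not pair the arrays (correlations of same-numbered deviations -0.0341 to 0.0948). With the replicate block 1 of 87 calls was lost, the SCAP difference between effects (0.25, adjusted p = 0.0513). Without single arrays, 29 of 642 refits lost a call and 0 changed direction. These counts of members were 8 to 10 higher and 5 to 5 lower for SKR6CA against SKR6-Vector, 17 to 18 and 6 to 6 for SKR6LR against SKR6, 9 to 9 and 4 to 4 for SKR6-Vector, 11 to 13 and 3 to 5 for SKR6CA against SKR6, and 3 to 6 and 15 to 16 for the difference between effects. With array weights or 1 weight per line 8 members fell in SKR6CA against SKR6-Vector instead of 5, and over all genes 3819 and 3762 fell instead of 2946. Without _x_at and _s_at probe sets, which left 19 members, 5 rose and 2 fell in SKR6-Vector against SKR6. Of 17100 genes 1796 rose and 1949 fell there. Cyclic loess left 2 members with a higher effect in SKR6CA than in SKR6LR, and 4076 of all genes instead of 5056.

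Single values changed sign mainly with the probe set. Without _x_at and _s_at probe sets IDI1 gave -0.49, -0.28 and -0.41 (SKR6CA against SKR6-Vector, SKR6LR and SKR6CA against SKR6), SC5D gave -0.08, -0.07 and -0.14 (SKR6LR, SKR6-Vector and SKR6CA against SKR6) and 0.01 for the difference between effects, and MYLIP 0.89 in SKR6CA against SKR6-Vector. There, the probe set with the largest variance gave 0.89 for MYLIP and 0.30 for NPC1, and the mean of probe sets 0.08 and 0.09; that mean gave -0.04 for SC5D in SKR6CA against SKR6. Differences that were not called also crossed 0: MYLIP (0.02, median centring), MVK and MVD in SKR6LR (0.07, cyclic loess; -0.03, array weights), TM7SF2 between effects (-0.04, cyclic loess; -0.04 to 0.18 without single arrays) and SREBF2 between effects (0.02, median centring; 0.16, array weights; -0.12 to 0.07 without single arrays). The causes were not tested. Over all genes median centring moved the share of higher calls in SKR6CA against SKR6-Vector from 43.9% to 56.2%, and cyclic loess moved it from 40.8% to 52.3% in SKR6LR against SKR6 and from 56.4% to 46.1% for the difference between effects.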
